A study of Mus musculus with 6 samples.

Results

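The interferon genes described here are 55 genes of the mouse interferon system: receptors, the transcription factors that act below them, and the genes that interferon switches on. They were chosen by name from knowledge of the pathway, but with earlier results of these data already known. All 55 were found among the 23412 gene symbols of the read count table. One of them, I830012O16Rik, is an older name of Ifit3b. Liver RNA came from C57BL/6J mice, an inbred strain, labelled as 8 weeks of age, and was sequenced. All mice had eaten a high-fat diet for 4 weeks. In the HFD_Lira3d group (3 libraries) liraglutide was given under the skin at 300 µg/kg over 3 days, and in the HFD_PBS3d group (3 libraries) phosphate-buffered saline (PBS) took its place. Liraglutide is a stable analogue of the gut hormone GLP-1 that lowers appetite. The libraries held 20888991 to 25404192 counts under liraglutide and 21901811 to 27007182 under PBS. Nothing in the labels says that the libraries came from separate animals, and the p-values given below then describe only how far these libraries spread, which may be technical.

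Interferons are secreted proteins that warn cells of viral or microbial nucleic acid. Interferon alpha and beta bind the receptor made of Ifnar1 and Ifnar2 and activate a complex that holds Stat2 and Irf9 and binds a DNA element called ISRE in the promoters of its targets. Interferon gamma binds Ifngr1 and Ifngr2 and acts on an element called GAS. In liver, hepatocytes and the resident macrophages (Kupffer cells) both respond to interferon, and many of the targets are also expressed at a low level in uninfected tissue.

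Under liraglutide, 17 of the 55 interferon genes (30.9%) fell and 0 rose. With 1 library left out the number that fell lay between 8 (without PBS158) and 26 (without Lira164), and 8 of the 17 kept the call in all 6 such fits. Of all tested genes, 1.82% fell without PBS158 and 6.27% without Lira164. At an unadjusted p below 0.05, 28 of the 55 were lower and 0 higher, against 13.1% and 12.5% of all tested genes, and DESeq2 and limma-voom also called 0 higher. Among all 12626 tested genes, 8.77% changed: 4.69% fell and 4.08% rose, and with library totals as the scale 3.61% fell and 4.82% rose. Ifit1, an RNA-binding antiviral protein, was 3.66-fold lower, and I830012O16Rik (2.78-fold), Oasl1 (2.66-fold), Mx1 (2.57-fold), Ifit3 (2.54-fold) and Isg15 (2.43-fold) were next in size. The genes that fell were antiviral effectors, cytosolic RNA sensors, GTPases that attack intracellular microbes, and the transcription factor gene Irf5. The 4 receptor genes were not among them. In whole tissue, fewer cells of a type and less RNA per cell cannot be told apart. Calls rest on edgeR's quasi-likelihood test, where a gene is called if its p, adjusted by Benjamini and Hochberg's method over the whole table, is below 0.05. The median log2 fold change, liraglutide over PBS, was -0.44 for the 55 genes and 0.01 for all tested genes, and 48 of the 55 were below 0, against 48.4% of all tested genes.

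**Figure D1:**
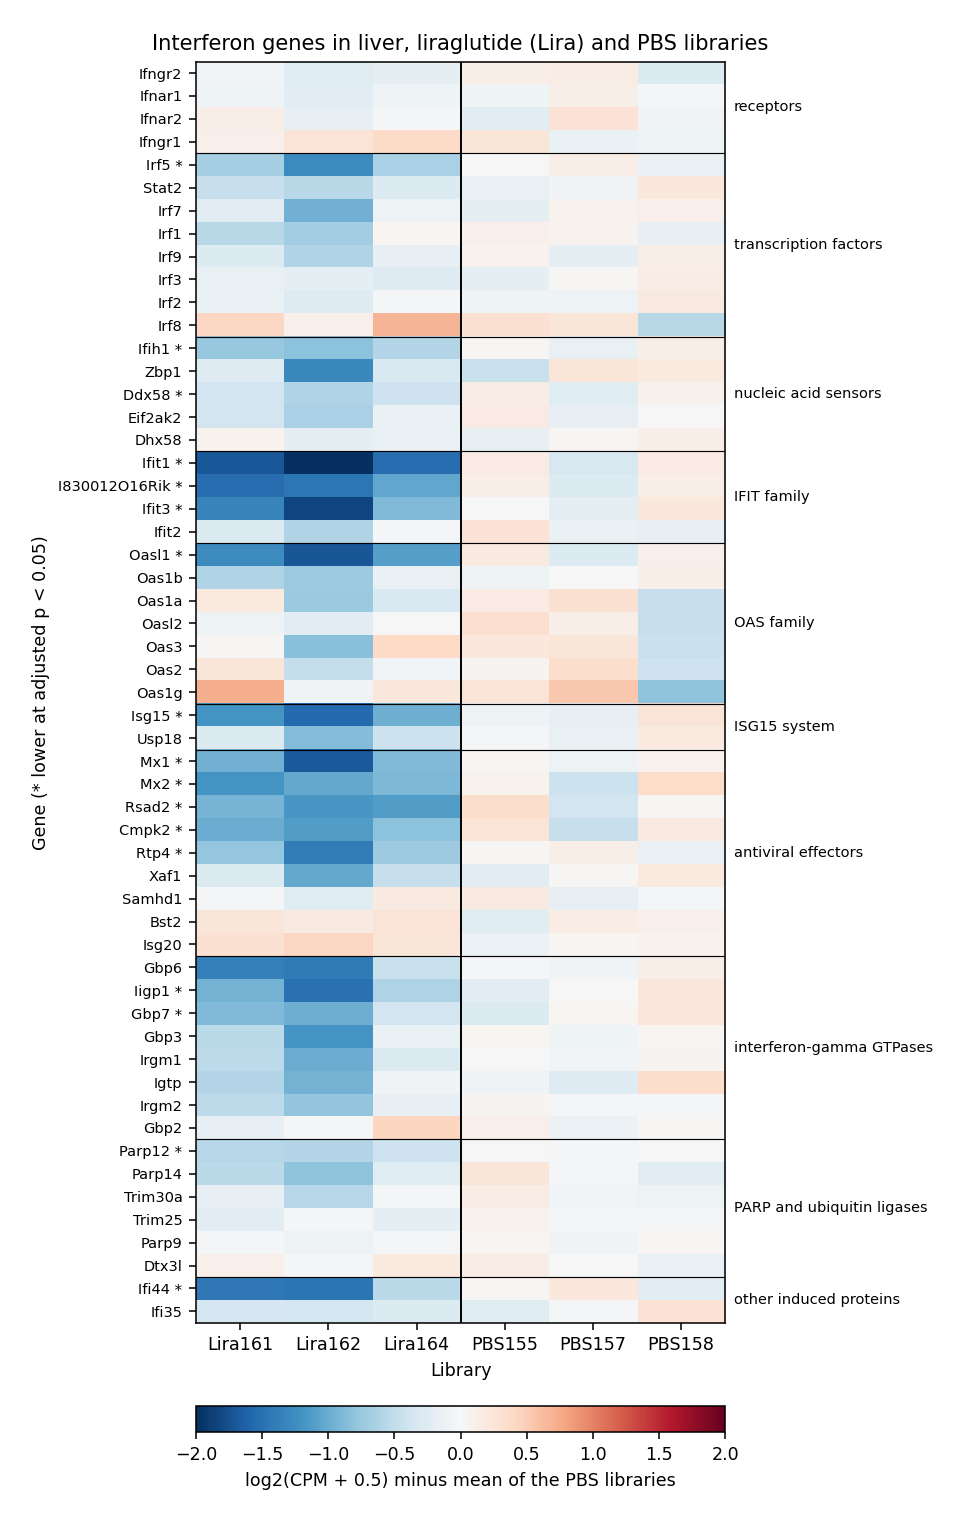
Level of each of the 55 interferon genes (rows, grouped by role) in each library (columns, liraglutide left and PBS right), as log2(CPM + 0.5) relative to the PBS average; an asterisk marks the 17 genes that fell at an adjusted p below 0.05. The deepest blue is Ifit1, at 7.53 CPM in Lira162, and that library is the lowest overall at a mean over the 55 genes of -0.74, with Lira161 at -0.44 and Lira164 at -0.28.

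The promoters of the 5 genes with the smallest p among those that fell and have a promoter in the RefSeq table are shown because this is where interferon's DNA element lies in known targets. Each runs from 250 bases before to 50 bases after the transcription start, 5′ to 3′ on the gene's strand, from RefSeq on GRCm38.p6. Capitals mark the ISRE core, which is GAAA, any 2 bases and GAAA again, or TTTC, any 2 bases and TTTC where it lies on the other strand. The regions are chr5:114922990-114923289 (plus strand) for Oasl1, chr19:34640639-34640938 (plus) for Ifit1, chr4:156200769-156201068 (minus) for Isg15, chr19:34607707-34608006 (plus) for I830012O16Rik and chr2:62646206-62646505 (minus) for Ifih1.
Oasl1: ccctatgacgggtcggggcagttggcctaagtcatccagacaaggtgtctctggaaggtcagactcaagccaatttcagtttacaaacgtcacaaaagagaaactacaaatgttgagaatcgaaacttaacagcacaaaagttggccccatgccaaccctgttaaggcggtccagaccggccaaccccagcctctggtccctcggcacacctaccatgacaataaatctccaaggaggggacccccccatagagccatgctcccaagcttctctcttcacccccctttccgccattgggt
Ifit1: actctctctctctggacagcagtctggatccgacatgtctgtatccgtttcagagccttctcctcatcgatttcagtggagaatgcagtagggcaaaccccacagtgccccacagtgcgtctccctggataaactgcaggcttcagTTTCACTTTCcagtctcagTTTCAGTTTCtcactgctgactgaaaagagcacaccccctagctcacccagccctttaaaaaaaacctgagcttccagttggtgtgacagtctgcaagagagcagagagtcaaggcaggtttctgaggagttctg
Isg15: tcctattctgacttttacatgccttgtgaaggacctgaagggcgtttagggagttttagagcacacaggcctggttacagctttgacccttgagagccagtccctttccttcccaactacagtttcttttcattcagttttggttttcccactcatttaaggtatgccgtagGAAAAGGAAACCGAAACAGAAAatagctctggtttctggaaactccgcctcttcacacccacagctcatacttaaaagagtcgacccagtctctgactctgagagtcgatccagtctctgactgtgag
I830012O16Rik: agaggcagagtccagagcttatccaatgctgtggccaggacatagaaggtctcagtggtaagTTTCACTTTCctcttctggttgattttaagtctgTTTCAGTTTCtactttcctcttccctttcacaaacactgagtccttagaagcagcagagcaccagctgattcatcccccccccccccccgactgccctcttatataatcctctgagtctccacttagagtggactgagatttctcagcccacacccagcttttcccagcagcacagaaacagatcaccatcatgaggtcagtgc
Ifih1: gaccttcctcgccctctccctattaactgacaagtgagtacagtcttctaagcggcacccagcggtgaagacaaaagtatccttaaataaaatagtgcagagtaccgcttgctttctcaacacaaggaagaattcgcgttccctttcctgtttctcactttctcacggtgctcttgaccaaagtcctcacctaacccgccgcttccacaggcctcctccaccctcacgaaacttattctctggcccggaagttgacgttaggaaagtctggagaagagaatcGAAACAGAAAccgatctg
Isg15 holds 3 overlapping matches, Ifit1 and I830012O16Rik hold 2 each, Ifih1 holds 1 downstream of its start, and Oasl1 holds 0 of these letters in the window. None of the 5 holds the GAS letters, TTC and GAA with 3 bases between them.

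A promoter was found in RefSeq for 43 of the 55 genes. The ISRE core stood in the promoter of 21 of these 43 genes (48.8%), and in 3.44% of all 32851 promoters of the same length. Of the 13 genes that fell and had a promoter, 8 (61.5%) held it, and of the 30 that were not called, 13 (43.3%) held it. The GAS letters stood in 1 of the 13 genes that fell (7.69%), Gbp7, in 14 of the 30 (46.7%) and in 8.30% of all promoters. A gene counted if any of its promoters matched. Some of the 30 have 2 or 3 promoters, whereas each of the 13 has 1. Counted by gene, 3.65% of the 9926 tested genes with a promoter outside the 55 held the ISRE core and 8.44% the GAS letters. Both motifs were searched on both strands, and a match is a description of letters, not of a bound site. Outside the 55 genes, 362 tested genes held the ISRE core; 8.01% of them fell and 2.49% rose, and their median fold change was 0.01 (log2). Of the 9564 tested genes with a promoter without it, 4.51% fell and 4.07% rose, also with a median of 0.01. The 29 that fell included the interferon targets Ddx60, Trim34a, Trim12c and Tgtp1. Those of the 29 with the smallest edgeR adjusted p were Spp1, Bco2, Agxt2 and Akr1c14, which are not on the interferon lists. Of the 838 tested genes outside the 55 that held the GAS letters, 3.70% fell and 2.39% rose. The shares were not tested against each other.

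The secreted ligands were almost absent from the tissue RNA. Of 21 interferon ligand genes in the table, 18 had no read in any of the 6 libraries, Ifnb1 and the listed interferon alpha genes included. Ifng had 3 reads in Lira161 and 0 in the other liraglutide libraries, against 1 read in PBS157 and 0 in the other PBS libraries. Ifnk had 2 reads, in Lira161, and Ifnz 1 read, in Lira164, with 0 of either in PBS libraries. A count of 0 allows up to 3 reads, which is 0.116 to 0.145 CPM in liraglutide libraries and 0.11 to 0.144 CPM in PBS libraries, for counting error only. CPM are read counts scaled to a common library size with TMM factors. Ligand differences were therefore not detectable at this depth.

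None of the 4 receptor genes was called by edgeR, DESeq2 or limma-voom, and none had an unadjusted p below 0.05. Ifnar2, the signalling chain of the receptor for interferon alpha and beta, was the most abundant receptor gene per kb of exon, at 87.0, 70.5 and 76.6 CPM under liraglutide and 68.1, 96.8 and 74.9 CPM under PBS. The groups overlapped and its log2 fold change was -0.04 ± 0.14 (SE, edgeR adjusted p = 0.904; below, an error after a log2 fold change is its SE and one after CPM the SD over 3 libraries), with a sign that turned when library totals set the scale (0.01). Ifnar1, Ifngr1 and Ifngr2 had log2 fold changes of -0.13 ± 0.10, 0.25 ± 0.14 and -0.18 ± 0.13. Whether the receptors differ from the targets in their response was not tested.

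Of the 8 transcription factor genes, edgeR and limma-voom called Irf5 lower and not the other 7, while DESeq2 called Irf5 and Stat2. Irf5 (chromosome 6, 29526625 to 29541871, GRCm38), which acts below Toll-like receptors and is expressed mainly in myeloid and B cells, stood at 8.78, 5.56 and 8.83 CPM under liraglutide and 14.1, 15.6 and 12.9 CPM under PBS. All liraglutide libraries lay below all PBS libraries (log2 fold change -0.88 ± 0.18, edgeR adjusted p = 0.0211), and the call was lost without PBS157 or PBS158. Its exons overlap those of Tnpo3 on the other strand by 411 bp, and whether the counting used strand is not stated in the sources at hand. Stat2, a part of the ISRE-binding complex, was at 58.0, 54.8 and 66.3 CPM under liraglutide against 72.7, 76.4 and 93.4 CPM under PBS. Its groups did not overlap either, yet it missed the threshold in edgeR (-0.44 ± 0.12, edgeR adjusted p = 0.0560), as did Irf9, the DNA-binding part of that complex (-0.34 ± 0.13, 0.139). Irf3, the most abundant of these factors per kb and the first responder to viral RNA, was at 55.2, 53.7 and 51.1 CPM under liraglutide against 54.2, 62.2 and 68.0 CPM under PBS (-0.20 ± 0.10, adjusted p = 0.254). Irf7, the factor that amplifies interferon alpha production, had -0.39 ± 0.22 and Irf1, a target and mediator of interferon gamma, -0.38 ± 0.19. Irf2, a repressor of interferon genes, had -0.14 ± 0.11. Irf8, a myeloid factor, was the only factor above 0 (0.39 ± 0.26, adjusted p = 0.392).

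Among the 5 nucleic acid sensors, Ifih1 and Ddx58 fell. Ifih1 codes for MDA5, a sensor of long double-stranded RNA, and lies on chromosome 2 (62595798 to 62646255). It was at 33.7, 32.4 and 38.1 CPM under liraglutide against 58.6, 51.5 and 62.6 CPM under PBS, which is 1.66-fold lower (-0.73 ± 0.11, edgeR adjusted p = 0.00669). Ddx58 codes for RIG-I, the sensor of RNA ends that lack a cap. It was at 31.7, 27.1 and 30.8 CPM under liraglutide against 46.2, 34.9 and 44.1 CPM under PBS (-0.48 ± 0.12, adjusted p = 0.0427), a smaller difference that limma-voom did not call. Their helicase relative Dhx58, the most abundant sensor per kb, overlapped between groups at 20.9, 17.3 and 17.8 CPM under liraglutide against 17.6, 20.5 and 21.9 CPM under PBS (-0.10 ± 0.12, adjusted p = 0.653). Eif2ak2, the kinase PKR that halts translation, and Zbp1, a sensor of Z-form nucleic acid, had -0.39 ± 0.14 and -0.60 ± 0.32 and were not called.

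The IFIT genes, whose products bind foreign RNA and block its translation, held the largest difference. Ifit1 (chromosome 19, 34640871 to 34650009) was at 11.7, 7.53 and 13.2 CPM under liraglutide against 43.6, 31.2 and 43.9 CPM under PBS (-1.87 ± 0.23, edgeR adjusted p = 0.00573). The highest liraglutide library stood below every PBS library by a wide margin. Ifit3 was at 10.7, 7.37 and 14.7 CPM under liraglutide against 27.4, 23.9 and 31.8 CPM under PBS (-1.35 ± 0.24, adjusted p = 0.0160). Its near copy I830012O16Rik was at 2.36, 2.51 and 3.50 CPM under liraglutide against 8.54, 6.34 and 8.50 CPM under PBS (-1.48 ± 0.21, adjusted p = 0.00601). Of the 50-base windows of Ifit3 transcripts 51.2% also stand in Ifit3b, so their separate values are uncertain. Ifit2, at the end of the same cluster (chromosome 19, 34550694 to 34650009 for all 4 genes), was not called, at 5.92 ± 1.23 CPM (SD, n = 3) under liraglutide against 7.46 ± 1.48 CPM under PBS (-0.34 ± 0.21, adjusted p = 0.340).

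**Figure D2:**
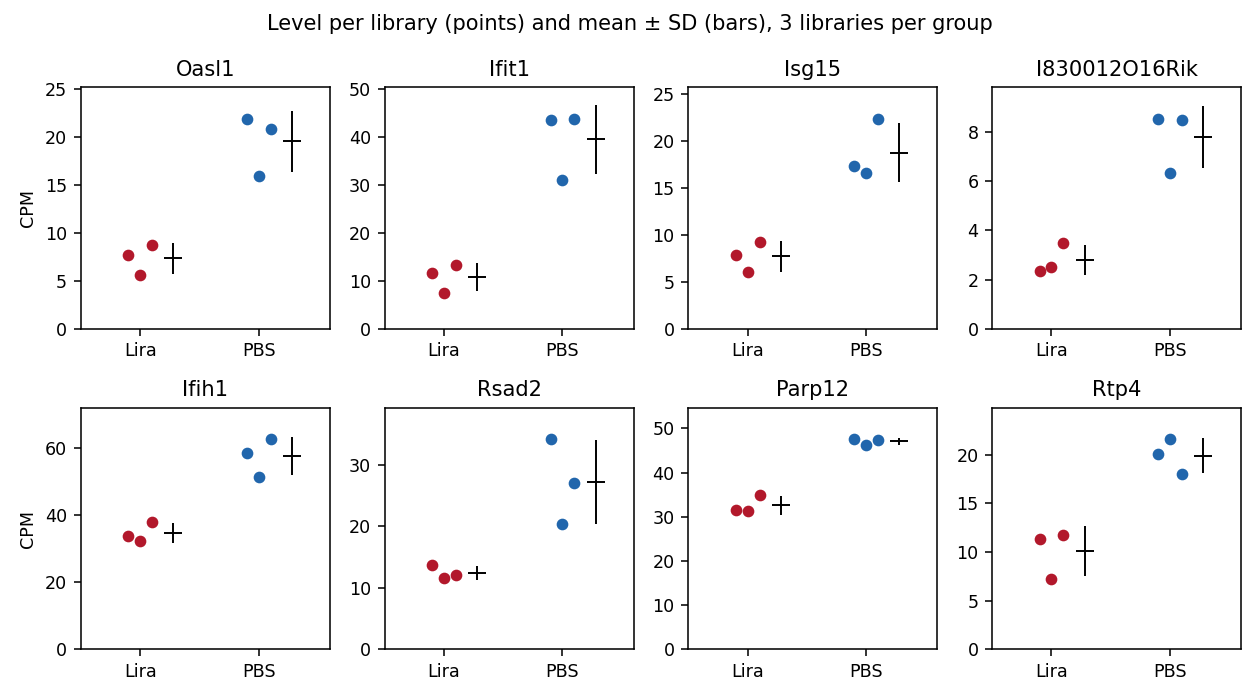
CPM in each library (points) with the mean and SD (bar beside them) for the 8 genes that kept their call whichever single library was left out, liraglutide left and PBS right, 3 libraries per group. In every panel the 3 liraglutide points lie below the 3 PBS points, from 2.36 to 3.50 CPM under liraglutide and 6.34 to 8.54 CPM under PBS for I830012O16Rik up to 32.4 to 38.1 CPM under liraglutide and 51.5 to 62.6 CPM under PBS for Ifih1.

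In the family of oligoadenylate synthetases and their relatives, only Oasl1 was called among the 7 genes. Oasl1 lacks synthetase activity and, in mouse, is known to restrain translation of Irf7. It lies on chromosome 5 (114923240 to 114937915) and was at 7.72, 5.56 and 8.75 CPM under liraglutide against 21.9, 15.9 and 20.8 CPM under PBS (-1.41 ± 0.19, edgeR adjusted p = 0.00517). That is the smallest p of the 55 genes. Its neighbour Oasl2 overlapped between groups, at 5.25 ± 0.46 CPM under liraglutide against 5.80 ± 1.67 CPM under PBS (-0.15 ± 0.22, adjusted p = 0.712). The Oas genes apart from Oasl1 and Oasl2 are 5 in number here (Oas1a, Oas1b, Oas1g, Oas2 and Oas3) and lie together on chromosome 5 (120730333 to 120907521). They were low, averaging between 1.24 and 4.16 CPM under liraglutide, and their median log2 fold change was -0.14. Oas1a and Oas1g share 57.6% of the windows of Oas1a, so these values are uncertain as well.

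Isg15, a ubiquitin-like protein that is joined to others during infection, was at 7.86, 6.02 and 9.25 CPM under liraglutide against 17.3, 16.6 and 22.4 CPM under PBS (-1.28 ± 0.18, edgeR adjusted p = 0.00581). It lies on chromosome 4 (156199424 to 156200818), and the groups were well apart. Usp18, the protease that removes Isg15 and restrains the receptor chain Ifnar2, was at 19.3, 12.7 and 17.2 CPM under liraglutide against 22.8, 20.9 and 26.8 CPM under PBS. Its groups did not overlap, but edgeR did not call it (-0.52 ± 0.16, adjusted p = 0.0801), whereas DESeq2 did.

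Of the 9 other antiviral effector genes, 5 fell. Rsad2, whose product viperin makes a chain-terminating nucleotide, was at 13.7, 11.5 and 12 CPM under liraglutide against 34.2, 20.4 and 27 CPM under PBS (-1.13 ± 0.18, edgeR adjusted p = 0.00876). Its neighbour Cmpk2, a nucleotide kinase of mitochondria, was at 6.80, 6.18 and 7.75 CPM under liraglutide against 17.1, 10.1 and 16 CPM under PBS (-1.06 ± 0.20, adjusted p = 0.0155). Both lie on chromosome 12 (26442746 to 26479837). The liraglutide libraries were tightly grouped for this pair, while PBS157 was the lowest PBS library for both.

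Mx1 and Mx2, dynamin-like GTPases that trap viral particles, also fell. Mx2 was at 4.05, 4.63 and 5.08 CPM under liraglutide against 10.4, 7.24 and 13 CPM under PBS (-1.15 ± 0.22, edgeR adjusted p = 0.0150). Mx1, which is defective in C57BL/6 and many other laboratory strains, was at 1.93, 0.965 and 2.04 CPM under liraglutide against 4.29, 3.90 and 4.46 CPM under PBS (-1.36 ± 0.28, adjusted p = 0.0207). The pair lies on chromosome 16 (97447035 to 97560900). Rtp4 (chromosome 16, 23520291 to 23614222), a chaperone that also dampens the interferon response in mouse, was at 11.4, 7.18 and 11.7 CPM under liraglutide against 20, 21.6 and 18.0 CPM under PBS (-0.98 ± 0.18, adjusted p = 0.0145).

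Of the called genes, Rtp4 (296 bp) and Gbp7 (637 bp) share exon sequence with another gene model on the same strand. Irf5 (411 bp, as given above) and Oasl1 (38 bp) do so with one on the other strand. The remaining 4 effectors were not called. Bst2, which tethers budding virus to the cell and had the highest mean level per kb of all 55 genes over the 6 libraries, was at 89.0, 85.4 and 90.2 CPM under liraglutide and 63.5, 83.7 and 81.1 CPM under PBS (0.21 ± 0.12, edgeR adjusted p = 0.282). Isg20, an RNA exonuclease gene, was at 2.65 ± 0.18 CPM under liraglutide against 2.03 ± 0.17 CPM under PBS (0.39 ± 0.21, adjusted p = 0.292). Bst2 and Isg20 were the only genes of the 55 whose liraglutide libraries all lay above the PBS libraries, and neither was called. In all, 27 of the 55 genes had liraglutide libraries that all lay below the PBS libraries, against 16.4% of all tested genes, and for 2 the order was the other way, against 14.9%. Samhd1, which depletes nucleotides, had -0.03 ± 0.14, and Xaf1, a cell death factor, -0.61 ± 0.22.

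**Figure D3:**
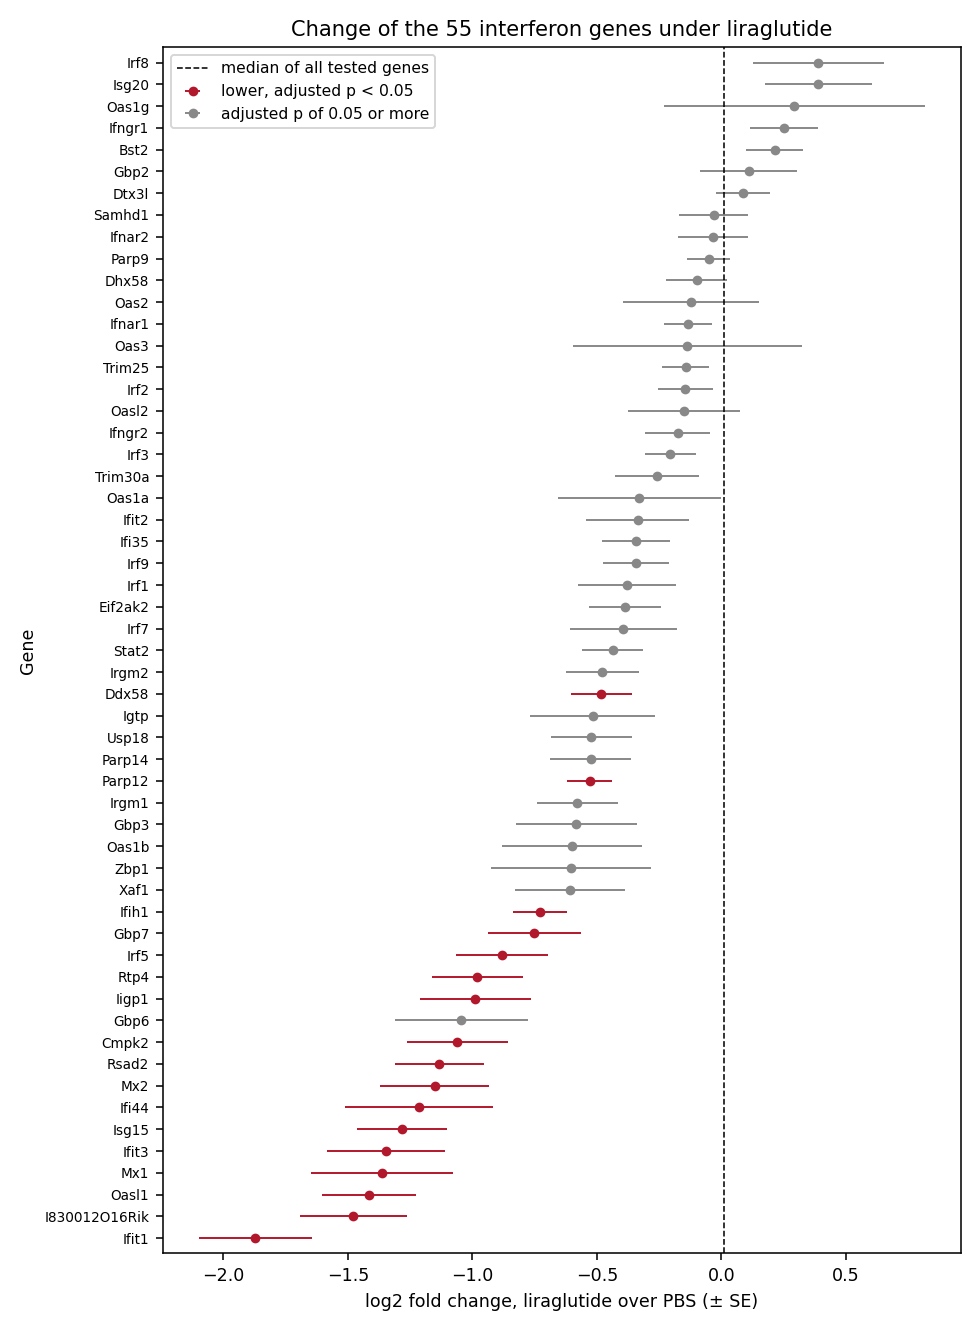
log2 fold change of liraglutide over PBS with its SE for the 55 interferon genes, ordered from highest to lowest; red points passed an adjusted p of 0.05 and grey points did not, and the dashed line is the median of all tested genes at 0.01. The red points run from -1.87 (Ifit1) to -0.48 (Ddx58), and the grey points from -1.04 (Gbp6) to 0.39 (Irf8).

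Among the 8 GTPase genes that interferon gamma induces, Iigp1 and Gbp7 fell. Iigp1 belongs to the immunity-related GTPases, which break down the vacuoles of parasites, and had the highest level per kb among the called genes. It was at 315, 217 and 398 CPM under liraglutide against 522, 606 and 715 CPM under PBS (-0.99 ± 0.22, edgeR adjusted p = 0.0328). Gbp7, a guanylate-binding protein, was at 19.1, 17.8 and 27.2 CPM under liraglutide against 29.5, 36.6 and 42.0 CPM under PBS (-0.75 ± 0.19, adjusted p = 0.0440). Among the liraglutide libraries Lira162 was lowest and Lira164 highest for both genes, and the groups did not overlap.

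Gbp6, Irgm1, Irgm2 and Gbp3 also had groups that did not overlap but missed the threshold in edgeR, with log2 fold changes of -1.04, -0.58, -0.48 and -0.58 and edgeR adjusted p between 0.0523 (Gbp6) and 0.180 (Gbp3). DESeq2 called Gbp6, Irgm1 and Irgm2 lower, and limma-voom Gbp6. Irgm1 and Irgm2 are regulators of the other immunity-related GTPases. Igtp overlapped between groups (-0.52 ± 0.25). Gbp2 was at 6.19 ± 1.48 CPM under liraglutide against 5.74 ± 0.45 CPM under PBS (0.11 ± 0.19). Of the windows of Gbp6 70.7% also occur in other genes, chiefly the overlapping gene model Gm43302, so its value is uncertain, and 12.7% of those of Gbp7 do.

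Among the 6 PARP and ubiquitin ligase genes edgeR and limma-voom called Parp12 alone, and DESeq2 called Parp12 and Parp14. It codes for an enzyme that attaches single ADP-ribose units to proteins, lies on chromosome 6 (39086410 to 39118349), and was at 31.4, 31.3 and 35.0 CPM under liraglutide against 47.5, 46.2 and 47.4 CPM under PBS (-0.53 ± 0.09, edgeR adjusted p = 0.00982). Libraries within each group were close and the groups well apart, at a 1.44-fold difference. Parp14, of the same enzyme family, was at 40.2 ± 7.97 CPM under liraglutide against 57.8 ± 9.15 CPM under PBS (-0.52 ± 0.16, adjusted p = 0.0832). Parp9 and its partner ligase Dtx3l, whose exons overlap by 458 bp on opposite strands, had -0.05 ± 0.09 and 0.09 ± 0.11. Trim25, the ligase that activates RIG-I and the most abundant of the 6 per kb, was at 103, 118 and 106 CPM under liraglutide against 126, 117 and 118 CPM under PBS (-0.14 ± 0.09, adjusted p = 0.378), and Trim30a had -0.26 ± 0.17. Of the last pair of induced genes, Ifi44 fell, at 2.07, 2.01 and 4.25 CPM under liraglutide against 6.49, 7.45 and 5.42 CPM under PBS (-1.21 ± 0.30, adjusted p = 0.0372). Ifi35, a binding partner of Nmi, was at 20.8, 20.5 and 21.7 CPM under liraglutide against 22.2, 25.5 and 32.2 CPM under PBS (-0.34 ± 0.14, adjusted p = 0.155).

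Per kb of exon, Oas3 had the lowest level of the 55 genes, at 0.184 CPM per kb under liraglutide and 0.199 under PBS. Bst2 was highest under liraglutide, at 97.7 CPM per kb against 84.3 under PBS. Iigp1 was highest under PBS, at 53.2 CPM per kb under liraglutide and 105 under PBS. Isg15 was at 10.2 CPM per kb under liraglutide and 24.8 under PBS, and Ifnar2 at 23.4 under liraglutide and 24.0 under PBS.

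Neighbouring members did not all share their call. The Rsad2 and Cmpk2 pair and the Mx pair were called in full, 3 of 4 genes of the IFIT cluster were called, and 1 of 3 in the Gbp cluster on chromosome 3 (142530342 to 142638008). In the receptor cluster on chromosome 16 (91372783 to 91565623), which holds Ifnar2, Ifnar1 and Ifngr2, 0 of 3 genes were called, as for the Parp14, Dtx3l and Parp9 cluster on the same chromosome (35832874 to 35972605).

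Other genes of the pathway, on a list of 121 of which 120 were in the table and 90 were tested, were described in the same way. Of the 90, 8 fell (8.89%) and 2 rose, against 4.69% and 4.08% of all tested genes, and their median was -0.07 (log2 fold change). Among the 63 further targets 7 fell and 1 rose. Ddx60, a helicase that aids RIG-I, was at 6.53 ± 1.36 CPM under liraglutide against 14.7 ± 1.49 CPM under PBS (SD, n = 3 each; -1.17 ± 0.17, edgeR adjusted p = 0.00614). The TRIM family genes Trim34a (-0.97 ± 0.15) and Trim12c (-0.92 ± 0.15), the guanylate-binding protein gene Gbp11 (-1.62 ± 0.33) and the T-cell-specific GTPase gene Tgtp1 (-1.18 ± 0.28) fell as well. Tor3a, an interferon-inducible torsin gene, was the target that rose, at 14.8 ± 1.85 CPM under liraglutide against 6.21 ± 2.32 CPM under PBS (1.24 ± 0.25, adjusted p = 0.0208). Gbp11 and Tgtp1 stood at 3.79 ± 1.71 and 2.72 ± 1.17 CPM under liraglutide against 11.6 ± 1.38 and 6.16 ± 0.59 CPM under PBS.

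Upstream of interferon, 1 of 15 induction genes rose and 1 fell, against 4.08% and 4.69% of all tested genes. The median log2 fold change of the 15 was 0.27, and 3 of them were below 0. At an unadjusted edgeR p below 0.05, 3 were higher and 1 lower, against 12.5% and 13.1% of all tested genes. Ticam1, the adaptor of Toll-like receptor 3, was at 27.7, 30.0 and 21.6 CPM under liraglutide against 13.2, 17.3 and 16.5 CPM under PBS (0.76 ± 0.15, edgeR adjusted p = 0.0179). Ikbke, a kinase that activates Irf3, was at 10.6, 11.3 and 8.66 CPM under liraglutide against 16.9, 15.5 and 13 CPM under PBS (-0.57 ± 0.15, adjusted p = 0.0429), and lost its call when any of the 6 libraries was left out. None of the 12 signalling genes was called by edgeR (3 lower and 1 higher at an unadjusted p below 0.05), while DESeq2 called 1 lower and limma-voom called 0. Jak1, the receptor kinase with the highest level per kb of the 12, had a log2 fold change of 0.09 ± 0.10. Leaving out Lira161, Lira162 or Lira164 left 5, 7 or 12 of the 90 pathway genes lower and 0, 0 or 2 higher. Leaving out PBS155, PBS157 or PBS158 left 5, 3 or 3 lower and 2, 2 or 1 higher. Ddx60, Trim34a and Trim12c kept their call in all 6 of these fits, the others in fewer. Gbp11 lost it without Lira161, PBS157 or PBS158 (edgeR adjusted p up to 0.0807) and Tor3a without Lira161, Lira162 or PBS157 (0.0718). Ticam1 lost it when Lira161, Lira162 or PBS158 was absent (0.0777), and Tgtp1 kept it only when Lira164 was (0.112).

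**Figure D4:**
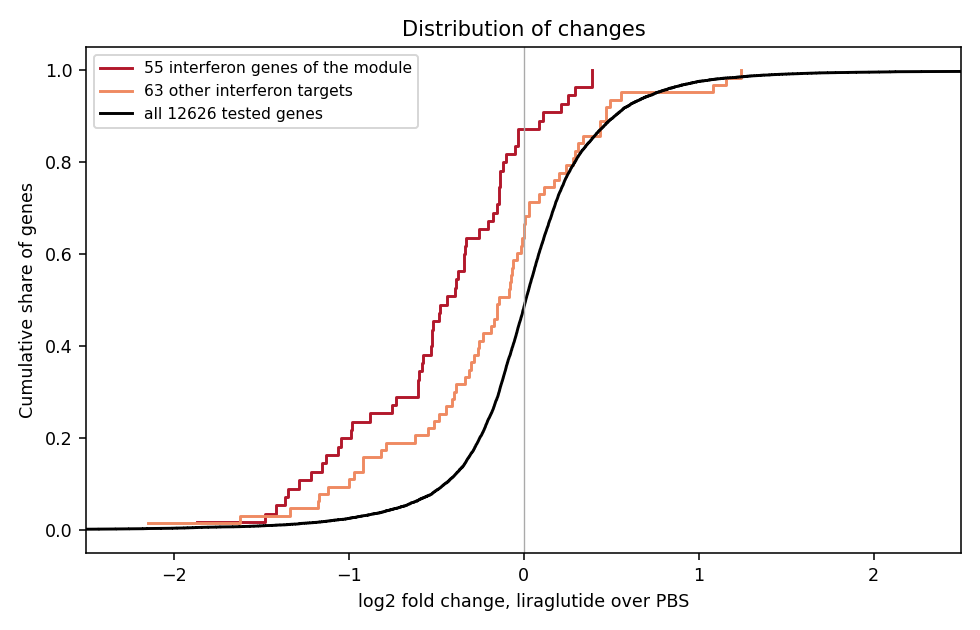
Cumulative share of genes (vertical axis) at or below each log2 fold change of liraglutide over PBS (horizontal axis) for the 55 interferon genes, 63 other interferon targets and all 12626 tested genes. The medians are -0.44, -0.14 and 0.01.

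The number of interferon genes called depended on the libraries. With Lira161 left out it was 9, with Lira162 left out 10 and with Lira164 left out 26. With PBS155, PBS157 or PBS158 left out, it was 16, 13 or 8. The share of all tested genes that fell moved with it, and was 2.00%, 1.82% and 6.27% for the liraglutide libraries in that order, then 3.74%, 2.89% and 1.82% for the PBS libraries. No interferon gene rose in any of these fits. Oasl1, Ifit1, Isg15, I830012O16Rik, Ifih1, Rsad2, Parp12 and Rtp4 kept the call in all 6, with adjusted p up to 0.0469. Mx1, Mx2 and Cmpk2 lost it when Lira161, Lira162 or PBS158 was absent (edgeR adjusted p of at most 0.0673), Ifit3 without Lira161 or PBS158 (0.0716), and Irf5 as given above (0.0652). Iigp1 and Gbp7 lost it without Lira161, Lira162, PBS157 or PBS158 (0.106 and 0.156), Ddx58 without any library but Lira164 or PBS157 (0.157), and Ifi44 without any but Lira164 (0.129). The mean level of the 55 genes, relative to the PBS mean on the log2 scale, was -0.44 in Lira161, -0.74 in Lira162 and -0.28 in Lira164, against 0.03 in PBS155, -0.03 in PBS157 and -0.00 in PBS158. Lira162 was thus the lowest library and Lira164 the nearest to PBS.

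The liver label held, with the hepatocyte markers summing to between 65212 and 84660 CPM under liraglutide and 75568 to 96395 CPM under PBS. Of these 5 markers edgeR and limma-voom called 0, and DESeq2 called Cps1 higher. Of all tested genes 48.4% were below 0, and edgeR called 4.69% lower and 4.08% higher. At an unadjusted p below 0.05, 13.1% of all tested genes were lower and 12.5% higher. The median log2 fold change of the 14 Kupffer cell and macrophage markers was 0.53, and 13 were above 0. None of the 14 was called by edgeR, with 0 lower and 1 higher at an unadjusted p below 0.05. DESeq2 and limma-voom called Cd163 higher. Their summed level was 513 CPM in Lira161, 329 in Lira162 and 494 in Lira164, against 566 CPM in PBS155, 237 in PBS157 and 148 in PBS158, so PBS155 stood apart from the other PBS libraries. Without PBS155 the interferon genes that fell numbered 16 of 55 (29.1%), and 3.74% of all tested genes fell. Whether the macrophage marker levels bear on the interferon genes was not tested. Of the 10 endothelial markers Clec4g (0.78 ± 0.17) and Stab1 (0.59 ± 0.13) rose, the median was 0.74, and the summed level was 257 to 394 CPM under liraglutide against 156.8 to 279 CPM under PBS. None of the 10 was below 0, and 5 were higher at an unadjusted edgeR p below 0.05, against 48.4% and 12.5% of all tested genes. DESeq2 called Oit3 and Tek higher as well, and limma-voom called Clec4g and Stab1 alone. Clec4g lost its call without Lira161, Lira162, PBS157 or PBS158 and Stab1 without Lira162, Lira164, PBS157 or PBS158 (edgeR adjusted p of at most 0.108).

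**Figure D5:**
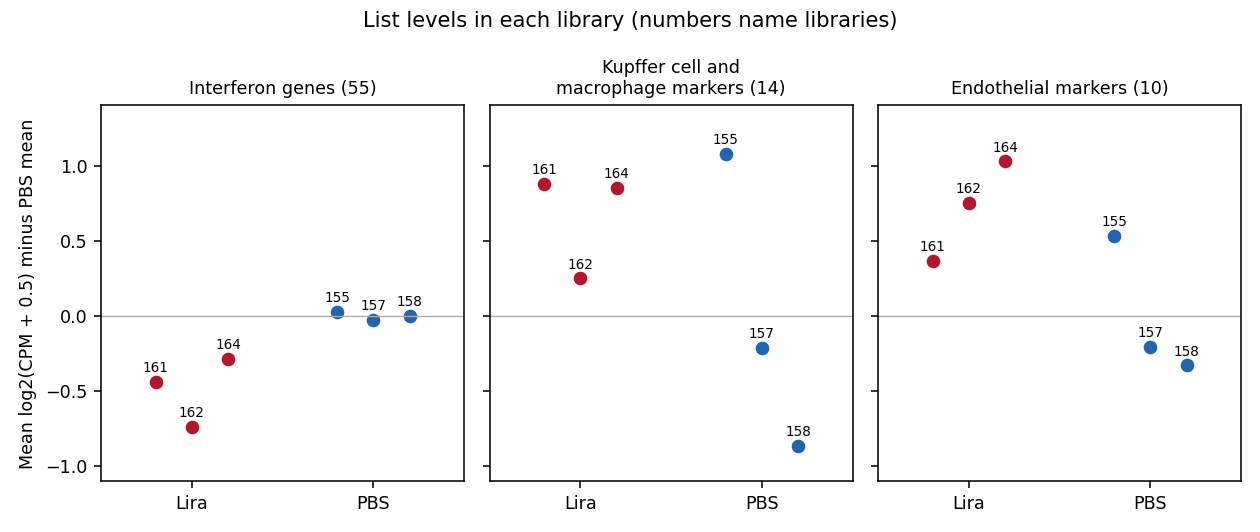
Mean log2(CPM + 0.5) relative to the PBS mean in each library (points, labelled by library number) for the 55 interferon genes, 14 Kupffer cell and macrophage markers and 10 endothelial markers, liraglutide left and PBS right. The interferon genes lie between -0.74 and -0.28 in liraglutide libraries and within 0.03 of 0 in PBS libraries, whereas the macrophage markers spread from -0.86 to 1.08 among the PBS libraries alone.

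Markers of blood-derived immune cells were low. The 15 T and natural killer cell markers summed to 5.96 to 6.60 CPM under liraglutide and 4.14 to 5.65 CPM under PBS, with Cd4 lower (-1.97 ± 0.35) and Ccl5, itself an interferon-inducible chemokine, higher (1.57 ± 0.41) among 5 tested. Their median log2 fold change was 1.26, and 4 of the 5 were above 0. At an unadjusted p below 0.05, 3 were higher, against 12.5% of all tested genes. DESeq2 also called Prf1 higher, and limma-voom did not call Ccl5. Ccl5 kept its call only without Lira164 (edgeR adjusted p up to 0.151). The 7 neutrophil markers in the table summed to 2.24 to 2.89 CPM under liraglutide against 1.49 to 3.70 CPM under PBS, the 7 recruited monocyte markers to 7.88 to 10.2 CPM under liraglutide against 5.04 to 9.85 CPM under PBS, and the 6 B cell markers to 3.46 to 4.63 CPM under liraglutide against 2.74 to 5.68 CPM under PBS. The 7 markers of conventional dendritic cells summed to 9.31 to 10 CPM under liraglutide against 6.00 to 8.99 CPM under PBS and the 8 of plasmacytoid dendritic cells, the main producers of interferon alpha, to 25.2 to 30.6 CPM under liraglutide against 23.5 to 27.8 CPM under PBS. In these last 5 lists edgeR called 0 genes. It tested 1, 5, 5, 4 and 3 of their markers, in the order given, and the rest did not pass the count filter. At an unadjusted p below 0.05 these lists held 1 lower and 1 higher gene, against 13.1% and 12.5% of all tested genes. Both were plasmacytoid dendritic cell markers. DESeq2 and limma-voom each called 1 gene of these lists, Ly6d, higher. None of the 91 markers in the table was at 0 in every library. Stellate cell markers (7, median 0.35) had 0 calls by edgeR, with 2 higher at an unadjusted p below 0.05, against 12.5% of all tested genes. DESeq2 called 2 of them higher and limma-voom 1. Of 5 cholangiocyte markers Spp1 fell (-0.82 ± 0.11), and their median was -0.37. The part of these cell types in the interferon result was not tested.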

How the data were processed

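RNA was sequenced from 3 liver libraries of mice given liraglutide and 3 of mice given PBS. Read counts by gene symbol, not normalized, are what the authors deposited, in 1 table. Per the submitters' processing notes, STAR and build mm10 were used. No source used here names the counting tool, its annotation or strand setting, or what became of multiply mapped reads. Column names give the group and a library number (as in Lira161), none of which is a triplicate number in the labels, and a column was therefore tied to its group alone. Totals were 20888991 to 25404192 counts in liraglutide libraries and 21901811 to 27007182 in PBS libraries, which limits the precision of low genes. Libraries of a group differed beyond sampling noise (chi-square per degree of freedom from 33.0 to 65.2).

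Genes were kept by filterByExpr and tested with edgeR 4.0.16 (R 4.3.3): TMM factors, glmQLFit with robust estimation, glmQLFTest on group, two-sided, Benjamini-Hochberg over 12626 genes. An SE is the log2 fold change divided by the square root of F. The procedure was tested on simulated data. Positions and exon lengths come from GENCODE M21 (GRCm38, the assembly of mm10), promoters from RefSeq. Alternatives were DESeq2 1.42.0, limma-voom (limma 3.58.1), other scalings and filters, a fit lacking the 10 most abundant genes, and fits lacking 1 library each. The 55 genes, the pathway and marker lists, and the tests were chosen with earlier results of these data known. Values in every library are given for called genes and for the most abundant gene per kb of each role group. Among other lists up to 6 called genes are named, and beyond that rule Stat2, Usp18 and the genes given by log2 fold change alone were named after their values were seen.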

Additional observations from a re-analysis of the deposited data

How the results depend on the processing

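The direction held for all 17 interferon genes that fell, in each of the 14 alternative fits that tested them, and no alternative called an interferon gene higher. The count of 17, with 4.69% of all tested genes lower, was 14 with library totals (3.61%) and 18 without a low-count filter (3.65%). It was 23 with DESeq2's Wald test (6.57%) and 17 with the other 4 settings (4.53% to 5.03%). A filter at a mean CPM of 5 kept 47 of the 55 genes, without Mx1 and Ifi44. Of these 47, 15 fell (31.9%), against 5.53% of all genes tested there. When 1 library was left out the count ranged from 8 to 26. With DESeq2 all 17 were shared. The median of the 55 genes lay between -0.57 and -0.33 in all alternatives. Library totals moved the median of all genes to 0.06. The other pathway genes that were lower numbered 15 with DESeq2, against 8 in the main result, and 3 to 12 when 1 library was left out, with 0 to 2 higher. Over all genes, leaving out 1 library gave 1.27% to 5.42% higher and 1.82% to 6.27% lower genes, against 4.08% and 4.69%. Ifnar2, which was not called at -0.04, turned to 0.015 with library totals, 0.03 without Lira162 and 0.12 without PBS157, and its values without 1 library ran from -0.15 to 0.12. The causes of these shifts were not tested. No paired analysis was possible because the columns carry no triplicate number of the labels.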
